A study of Saccharomyces cerevisiae with 6 samples.

Results

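IMX605 and IMX606 are strains of the yeast Saccharomyces cerevisiae in which the genes of glycolysis and alcoholic fermentation sit in one cluster; the labels place that cluster on chromosome V for IMX605 and on chromosome IX for IMX606. Their transcriptomes were compared over all genes that averaged 1 FPKM or more (reads scaled to gene length and to the depth of the library) across the 4 libraries of these strains, which left 5430 of 5625 gene models and 195 below the limit. The gene just under the limit, RRT5, averaged 0.994 FPKM and the gene just over it, PAU16, averaged 1.065 FPKM. Polyadenylated RNA was sequenced from 2 aerobic bioreactor cultures of each strain, run in the medium the labels call SMD and described there as biological duplicates: libraries R12 and R7 for IMX605, and R13 and R8 for IMX606. A further strain, IMX372 (libraries DSE001 and DSE002, titled MG aerobic), carries the glycolytic genes at their native loci and comes from an earlier deposit; its values are given beside the others and enter no main test. Each position of the locus is represented by 1 strain, so position and any other difference between the strains cannot be told apart.

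Glycolysis converts glucose to pyruvate, and in yeast growing on ample glucose most of that pyruvate is decarboxylated and reduced to ethanol even with oxygen present. Its enzymes are among the most abundant proteins of the cell, and many have a major gene and one or more minor paralogs. In ordinary strains the genes are scattered over the chromosomes; the lineage studied here is known for lacking most minor paralogs, which makes it possible to move the whole pathway as one cassette. CAN1, the arginine permease gene on chromosome V, and SGA1, the sporulation glucoamylase gene on chromosome IX, are commonly used as sites for inserting DNA in yeast, and were followed here for that reason; the labels name the chromosome of the locus and no site.

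The 4 libraries held 18754741 to 21370278 reads on genes, so for a 1 kb gene 3 reads correspond to 0.140 to 0.160 FPKM, a floor that covers counting error only. The 10 most abundant genes took 10.1% to 10.7% of the reads. Across genes, log2(FPKM + 1) values correlated at 0.991 to 0.996 between pairs of the 4 libraries, a description over genes that are not independent replicates. The mating type markers read alike in both strains: STE2, the alpha-factor receptor of a cells, stood at 460.4 and 452 FPKM in IMX605 and at 451 and 477 in IMX606, and STE3, the a-factor receptor of alpha cells, at 5.03 and 9.11 against 5.21 and 6.99. URA3, a uracil synthesis gene often used as a selection marker, was high in both strains, with 9763 and 9249 FPKM in IMX605 and 10901 and 9769.5 in IMX606, against 276 and 250.1 in IMX372.

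At CAN1 (chromosome V, 32674 to 34446, on CEN.PK113-7D sequences), the transcript level was low in IMX605 alone. It read 9.16 and 9.78 FPKM in IMX605, from 327 and 338 reads, against 119 and 119 FPKM in IMX606, from 3968 and 4503 reads, and 93.1 and 107.6 FPKM in IMX372. The 2 IMX605 libraries lay far below all others. The difference, IMX605 minus IMX606 on the log2(FPKM + 1) scale, was -3.52 (SE 0.10), and it passed limma's test with Benjamini-Hochberg adjustment over the 5430 genes (adjusted p = 5.43e-06). Genes with an adjusted p under 0.05 are said to be called. This scale understates the changes of genes with low values.

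The genes beside CAN1 read alike in the 2 strains. On one side stood AVT2, a putative vacuolar transporter gene, with 16.3 and 17.7 FPKM in IMX605 and 16.9 and 17.2 in IMX606 (difference 0.00). On the other stood NPR2, a regulator of nitrogen signalling, with 18.9 and 19.0 FPKM against 16.2 and 18.3 (0.13). Of the 16 genes tested within 20 kb of CAN1, 0 were called, beside 0.129% of all genes tested, their median difference was -0.01, and they ranged from -0.29 (SIT1, a siderophore transporter) to 0.53 (SDD1). Of the other near neighbours, HPA3, CIN8, PRB1, PCM1 and YEL068C differed by between -0.09 and 0.08. The 2 models of HXT13, a hexose transporter gene, lay below the expression limit. Within 50 kb 0 of 36 genes were called.

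At SGA1 (chromosome IX, 172264 to 173913) the low values were again in IMX605, the strain whose locus the labels place on chromosome V. SGA1 itself lay under 1 FPKM on average and was not tested. It had 0 and 1 reads in IMX605 (0 and 0.031 FPKM), against 40 and 56 reads in IMX606 (1.29 and 1.59 FPKM), with 1.97 and 1.24 FPKM in IMX372. The ratio of IMX605 to IMX606, adjusted for the reads per library, was 0.0106, with an exact 95% interval of 0.000264 to 0.0602 that covers counting error only. In IMX606, whose label names chromosome IX, the gene thus read within the range of IMX372.

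The next genes past the 3' end of SGA1 were also lower in IMX605. FMC1 (174028 to 174495), which is needed for assembly of the mitochondrial ATP synthase at raised temperature, begins 115 bases from SGA1 and points towards it. It read 2.65 and 6.69 FPKM in IMX605, against 88.9 and 68.2 in IMX606 and 91.5 and 83.6 in IMX372. Its difference was -3.90 (SE 0.31, adjusted p = 0.00478 by limma). FYV10 (174683 to 176233), a subunit of the GID ubiquitin ligase that marks gluconeogenic enzymes for destruction, lies head to head with FMC1. It read 5.03 and 5.59 FPKM in IMX605, against 17.3 and 18.1 in IMX606 and 13.1 and 17.7 in IMX372, and it fell by 1.57 (SE 0.13, adjusted p = 0.00562). For both genes the strains did not overlap, and IMX606 lay at or near the level of IMX372. The FYV10 call ended without IMX605 R12 (-1.50, adjusted p = 0.0802), and both calls ended when no limit on low values was set (adjusted p = 0.359 for FMC1 and 0.0815 for FYV10).

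Beyond these genes the differences around SGA1 were small. BMT5, PRK1, LYS12 and UTP25 followed FYV10 along the chromosome with differences of -0.24, -0.22, -0.20 and -0.20, each lower in both IMX605 libraries, while RSM25, a gene of the mitochondrial ribosome between LYS12 and UTP25, differed by 0.25. On the other side of SGA1, XBP1, a stress-induced repressor of cyclin genes, read 5.88 and 6.12 FPKM in IMX605 against 3.43 and 4.14 in IMX606 (0.55, unadjusted p = 0.0167, adjusted p = 0.998 by limma), and 6.66 and 4.90 FPKM in IMX372. DPH1, SHQ1 and SLM1 differed by -0.05, -0.10 and -0.04, and YIL102C was below the limit. Of the 20 genes tested within 20 kb, 2 were called, FMC1 and FYV10, beside 0.129% of all genes tested. With these 2 included, 8 were lower in both IMX605 libraries (12.8% of all genes tested were) and 2 higher (15.7% were). The median was -0.07, and -0.05 over the 18 genes not called. Within 50 kb 2 of 46 were called.

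**Figure D1:**
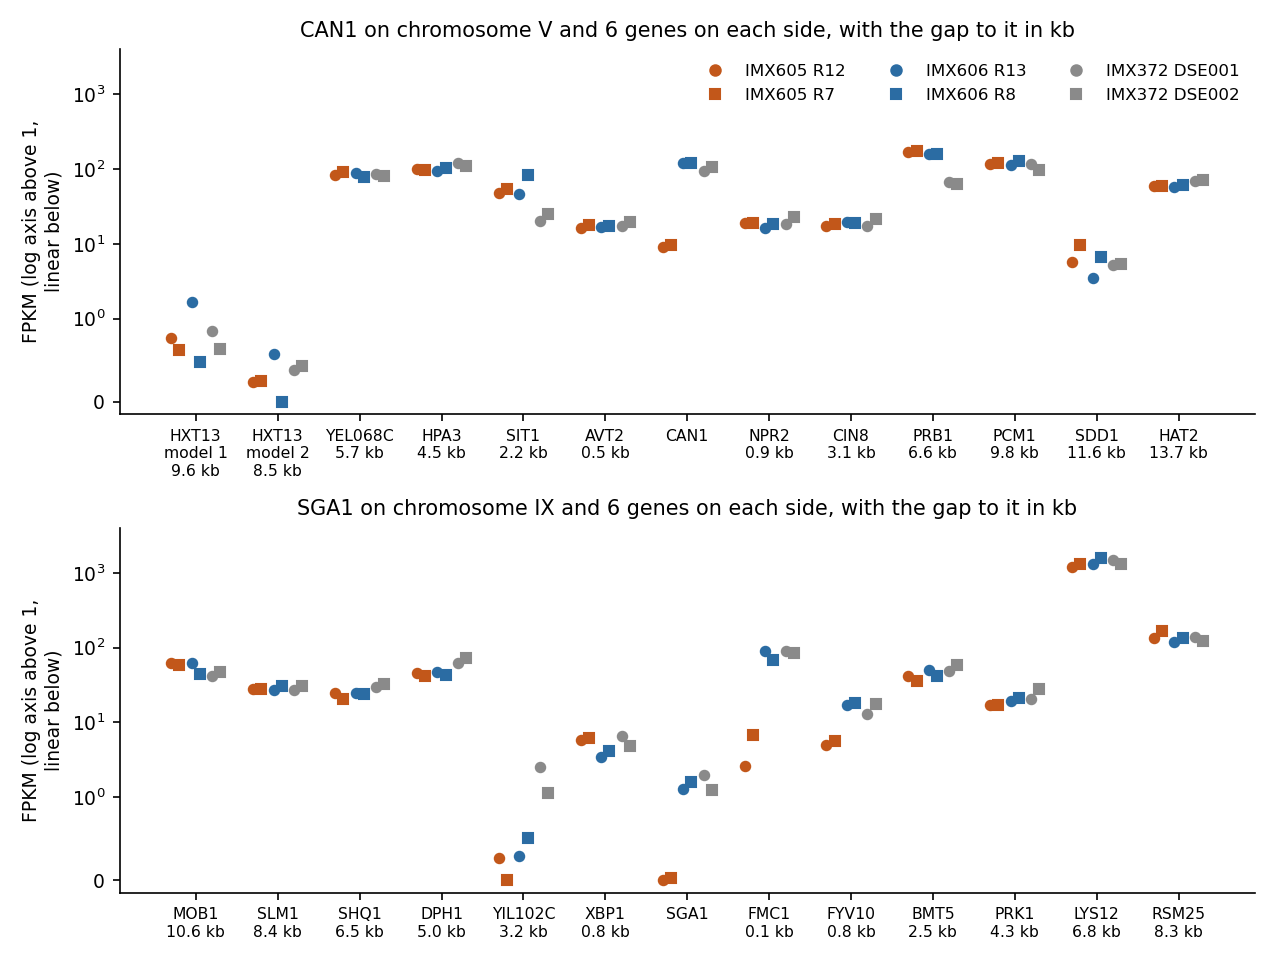
Levels in FPKM (log axis above 1, linear below) of CAN1, SGA1 and the 6 gene models on each side, in order along the chromosome, with the gap to the site in kb under each name. Points are single libraries of IMX605, IMX606 and IMX372. CAN1, SGA1, FMC1 and FYV10 stand lower in both IMX605 libraries than in the other 4, while XBP1 stands higher in both IMX605 libraries than in those of IMX606.

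Genes with roles related to those of CAN1, FMC1 and FYV10 did not pass the test, which 0.129% of all genes tested passed. Of 16 genes of arginine metabolism and transport other than CAN1, 0 were called and the median difference was -0.06, with the highest at 0.20 (CAR2, an arginine breakdown enzyme). LYP1, a lysine permease of the CAN1 family, read 170.5 and 168 FPKM in IMX605 and 171 and 173 in IMX606. ATP11 and ATP12, assembly factors for the same part of the ATP synthase as FMC1, differed by 0.32 and 0.30, higher in both IMX605 libraries and not called (adjusted p = 0.998 each by limma). The ATP synthase subunit genes ATP1 and ATP2 differed by 0.05 and 0.06. Among the GID ligase genes, VID24, VID28, VID30, GID7, GID8 and RMD5 differed by 0.16, 0.14, 0.01, 0.18, 0.03 and 0.05, and PCK1 and FBP1, whose enzymes are targets of that ligase, by 0.03 and -0.09.

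The relocated genes themselves were the next question: whether transcript levels of the pathway differed between its 2 positions. The 13 genes followed are the major paralogs of general knowledge, since the labels do not list them. None was called (0 of 13, beside 0.129% of all genes tested). An unadjusted p under 0.05 was found for 0 of them by limma (3.11% of all genes tested had one). The 95% interval of the difference lay within 2-fold for all 13 and within 1.5-fold for 11, the exceptions being HXK2 and PDC1. Mean levels in IMX605 were between 87.2% and 123.5% of those in IMX606, with 8 of the 13 differences positive.

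In the upper part of the pathway, HXK2, the main hexokinase, read 876 and 967 FPKM in IMX605 and 652 and 842 in IMX606, with no overlap and a difference of 0.31 (95% interval -0.0031 to 0.63, unadjusted p = 0.0518 by limma). PGI1, glucose-6-phosphate isomerase, read 820.4 and 890.0 FPKM against 796 and 922 (0.00). PFK1 and PFK2, the subunits of phosphofructokinase, differed by -0.17 and -0.12. PFK1 read 379.6 and 391 FPKM in IMX605 and 382 and 494 in IMX606, with the first of the IMX606 libraries inside the IMX605 range. For PFK2 both IMX605 libraries, at 293 and 294 FPKM, lay below those of IMX606, at 298 and 344. FBA1 (aldolase) and TPI1 (triose phosphate isomerase) differed by 0.09 and -0.03, with all libraries overlapping.

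In the lower part, TDH3, glyceraldehyde-3-phosphate dehydrogenase, was the most abundant of the 13, with 18952 and 20442 FPKM in IMX605 and 18635 and 19276 in IMX606 (0.05). Its value is uncertain because TDH2 is nearly identical in sequence. PGK1, phosphoglycerate kinase, read 2029 and 2184 FPKM against 2144 and 2688 (-0.19), the lowest difference of the 13, and the libraries overlapped. GPM1, phosphoglycerate mutase, differed by 0.05, and ENO2, enolase, by 0.08, with both IMX605 libraries (9861 and 9934 FPKM) above both of IMX606 (9715 and 9076). CDC19, pyruvate kinase, differed by 0.10.

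Of the fermentative genes, PDC1 had the widest interval of the 13. PDC1, the main pyruvate decarboxylase, read 6526 and 5762 FPKM in IMX605 and 7136 and 3957 in IMX606, so that the IMX606 cultures differed from each other by more than the strains did. Its difference was 0.21 (95% interval -0.36 to 0.77), and it was 0.63 without IMX606 R13 and -0.22 without IMX606 R8. ADH1, the main alcohol dehydrogenase, read 6740.3 and 7927 FPKM in IMX605 against 6841 and 7516 in IMX606 (0.03, interval -0.23 to 0.28).

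Summed over the 13 genes, the level was 85829 and 92279 FPKM in IMX605 and 83879 and 87821 in IMX606, with 85418 and 71696 in IMX372. That was 9.40% and 9.99% of the reads on genes in IMX605, and 9.25% and 9.39% in IMX606. The IMX605 mean (89054 ± 4561, SD, n = 2) exceeded the IMX606 mean (85850.1 ± 2788, SD, n = 2) by 3204 FPKM, and the 4 sums overlapped. By a two-sided exact permutation test over the cultures p was 0.667, where 0.333 is the smallest this design allows. Without IMX605 R7 the difference was -20.9 FPKM.

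**Figure D2:**
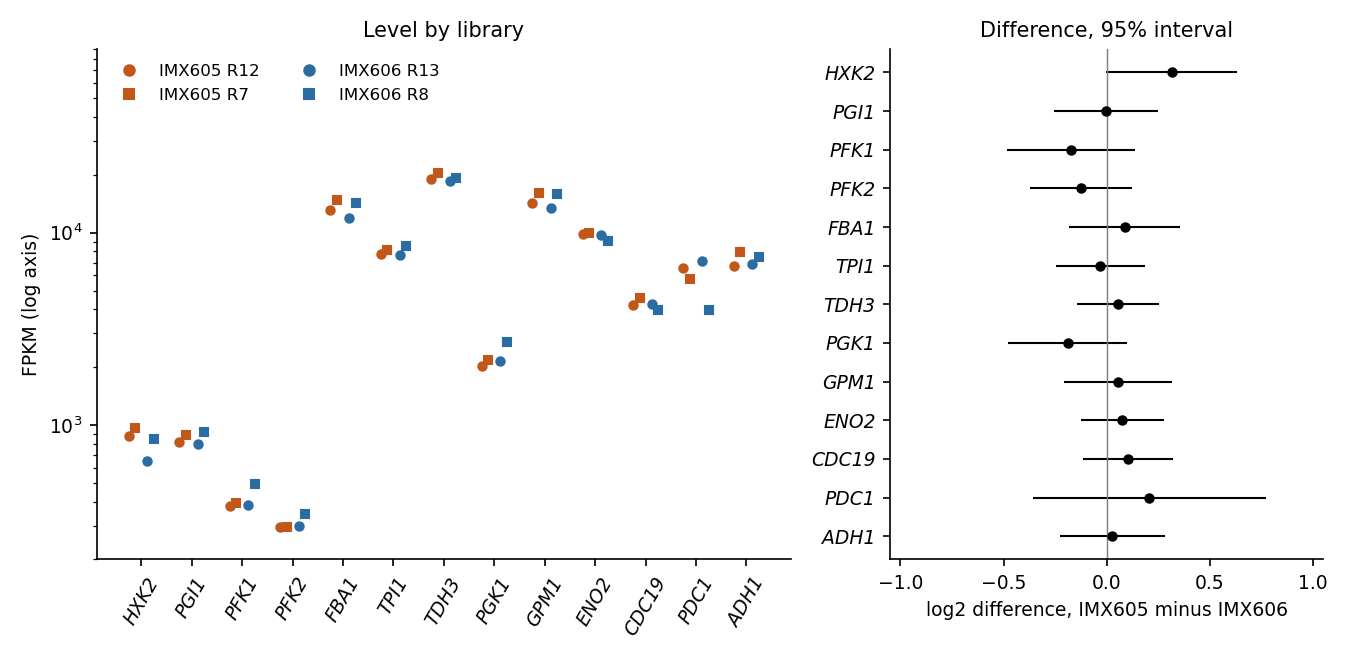
Left, levels in FPKM (log axis) of the 13 relocated genes in each library of IMX605 and IMX606, in pathway order. Right, the log2 difference of IMX605 minus IMX606 with its 95% interval from limma; all 13 intervals reach 0 and all stay inside -1 to 1.

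Minor isoenzyme genes were low in both strains. Of 12 gene models, 6 averaged at least 1 FPKM and 0 were called, beside 0.129% of all genes tested. HXK1 read 4.397 and 4.75 FPKM in IMX605 and 6.14 and 3.18 in IMX606, and ENO1 4.88 and 2.93 against 4.18 and 3.06. ADH2, ADH4 and TDH1 stayed under 7 FPKM in every library, with differences of 0.31, -0.18 and -0.23. TDH2 read 1.64 and 7.96 FPKM in IMX605 and 6.89 and 6.42 in IMX606, values that can hold reads of TDH3. GLK1, GPM2, PYK2, PDC5, PDC6 and ADH5 lay under the limit, the highest single value being 1.26 FPKM for GLK1 in IMX605 R12.

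Regulators and transporters of the pathway did not pass either. At the share of 0.129% called over all genes tested, lists this short would seldom hold a call. Of 11 regulators 0 were called: GCR1 and GCR2, activators of glycolytic genes, differed by 0.01 and -0.06, TYE7 by 0.02, and RAP1, which binds many glycolytic promoters, by -0.21, with both IMX605 libraries lower. Of 14 genes of hexose transport and glucose sensing 0 were called. HXT3, the most abundant transporter gene, read 737 and 862 FPKM in IMX605 and 708 and 839.7 in IMX606. MIG3, a glucose-responsive repressor, had the smallest p of these, with 11.7 and 12.7 FPKM against 8.86 and 9.44 (0.38, unadjusted p = 0.0209, adjusted p = 0.998 by limma).

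Across the genome few genes were called. Limma called 7 of 5430 genes (0.129%), 3 higher in IMX605 (0.0552%) and 4 lower (0.0737%), and 169 (3.11%) had an unadjusted p under 0.05. The median difference was 0.02, the quartiles were -0.05 and 0.10, and the 95% interval was inside 2-fold for 5337 genes (98.3%) and inside 1.5-fold for 4801 (88.4%). Both IMX605 libraries lay above both IMX606 libraries in 854 genes (15.7%) and below them in 694 (12.8%). Besides CAN1, FMC1 and FYV10, the called genes were PAU1 model 2, PAU20 model 2, YOL163W and YOL162W, all near chromosome ends. The "model" numbers mark gene models that share a name in the deposited table.

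**Figure D3:**
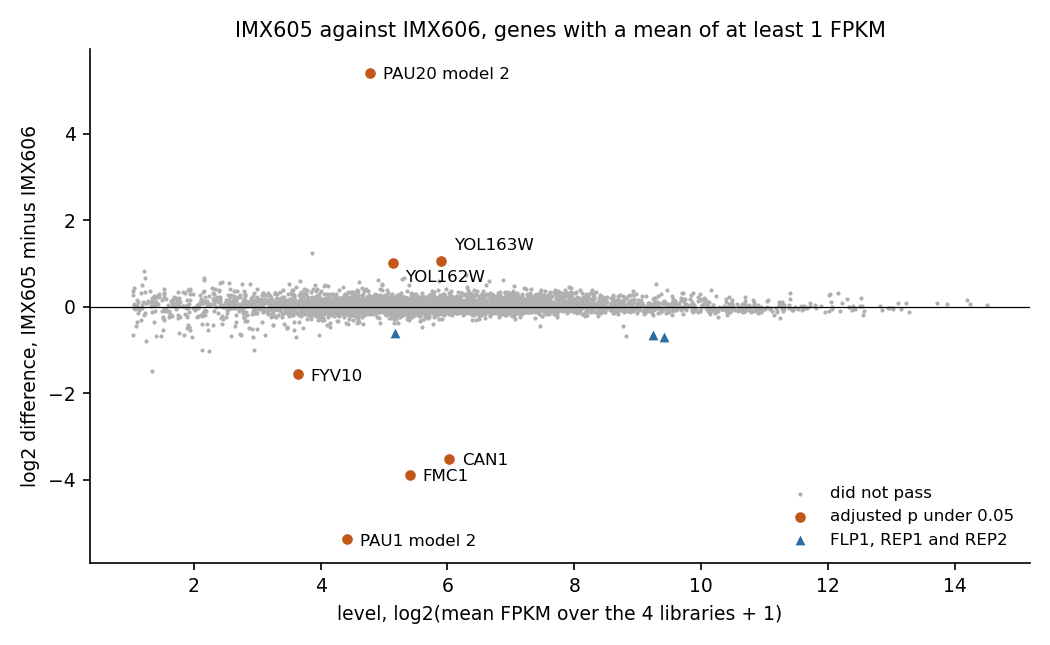
Log2 difference, IMX605 minus IMX606, of 5430 genes against their level, log2(mean FPKM over the 4 libraries + 1). The 7 genes with an adjusted p under 0.05 are named; FLP1, REP1 and REP2 of the 2-micron plasmid, which did not pass, are drawn as triangles and lie between -0.69 and -0.60.

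At the left end of chromosome XV, 5 neighbouring genes were all higher in both IMX605 libraries, as were 15.7% of all genes tested. Of these 5 genes, 3 were called, beside 0.129% of all genes tested. PAU20 model 2 (11453 to 11935), a member of the seripauperin family of small cell wall mannoprotein genes found mostly near telomeres, read 56.4 and 49.3 FPKM in IMX605 (548 and 464 reads), against 0.331 and 0.194 in IMX606 (3 and 2 reads) and 0.0294 and 0 in IMX372. The ratio of IMX605 to IMX606 was 205 (exact 95% interval 87.6 to 633, counting error only), and the gene rose by 5.41 on the log2 scale (adjusted p = 5.43e-06 by limma). It was close to silent in 4 libraries and clearly present in 2.

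The 2 genes next to it rose by less. YOL163W (from 9540) read 77.3 and 82.7 FPKM in IMX605, against 36.9 and 38.7 in IMX606 and 41.0 and 40.02 in IMX372, a difference of 1.06 (SE 0.10, adjusted p = 0.00732). YOL162W (from 10023) read 46.5 and 45.6 FPKM against 20.2 and 24.99, and 22.9 and 24.4 in IMX372 (1.01, SE 0.12, adjusted p = 0.0467). Both stood at about the IMX372 level in IMX606 and above it in IMX605. Their calls ended without IMX605 R12 (adjusted p = 0.0802 and 0.318) and without IMX605 R7 (0.143 and 0.390), with differences of 0.99 to 1.11, and that of YOL162W also in limma without the trend (0.145) and in voom (0.0926).

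Outward of these, BDS1, a sulfatase gene, read 92.2 and 100.3 FPKM in IMX605, against 46.6 and 71.0 in IMX606 and 61.2 and 59.0 in IMX372 (0.73, adjusted p = 0.998). The outermost, AAD15, an aryl-alcohol dehydrogenase gene with a near-identical copy, read 16.7 and 22.2 FPKM in IMX605, against 6.67 and 8.56 in IMX606 and 6.17 and 7.15 in IMX372 (1.24, adjusted p = 0.0936). Neither passed; both passed without IMX606 R8 (1.03, adjusted p = 0.0137, and 1.40, adjusted p = 0.0389). Without IMX606 R13 the differences were 0.43 (adjusted p = 0.174) for BDS1 and 1.08 (adjusted p = 0.0696) for AAD15, and the fit of all 6 libraries called AAD15 (adjusted p = 0.0123). The next genes inward did not share the difference, with YOL159C-A at -0.10, CSS3 at -0.01 and ENB1, a siderophore transporter, at -0.20.

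At the right end of chromosome XIV the strains stood the other way round. PAU1 model 2 (757929 to 758291) had 0 reads in both IMX605 libraries, against 287 and 305 reads in IMX606 (42.2 and 39.3 FPKM), with 13.4 and 9.52 FPKM in IMX372. With 3 reads per library as the floor, the level in IMX605 was at least 97.6-fold lower than in IMX606 (adjusted p = 5.43e-06 by limma). Beyond it, YPR202W model 5, which has near-identical copies, read 0.142 and 0.292 FPKM in IMX605 against 1.06 and 4.67 in IMX606 (-1.49, adjusted p = 0.998). Inward, COS10 and BSC5 differed by -0.23 and 0.22.

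PAU1 model 2 and PAU20 model 2 have near-identical copies elsewhere, so reads may be split between models. Added together they read 56.4 and 49.3 FPKM in IMX605, 42.5 and 39.5 in IMX606, and 13.4 and 9.52 in IMX372. All 22 seripauperin models, of which 17 were tested and 2 called, summed to 151.8 and 154.1 FPKM in IMX605, 128.5 and 119.6 in IMX606, and 59.9 and 53.5 in IMX372. The opposite readings at the 2 ends thus stood beside family totals that were higher in both IMX605 libraries. Over the outermost 15 kb of the other 29 chromosome ends with tested genes, 0 of 124 genes were called, beside 0.129% of all genes tested. The 2 ends left out are those described above for their called genes, so this count does not set them apart. Median differences of the other 29 ends still ran from -0.79 to 0.26. The lowest was at the right end of chromosome VII. Of the 3 genes tested there, 2 were lower and 1 higher in both IMX605 libraries (12.8% and 15.7% of all genes tested were).

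**Figure D4:**
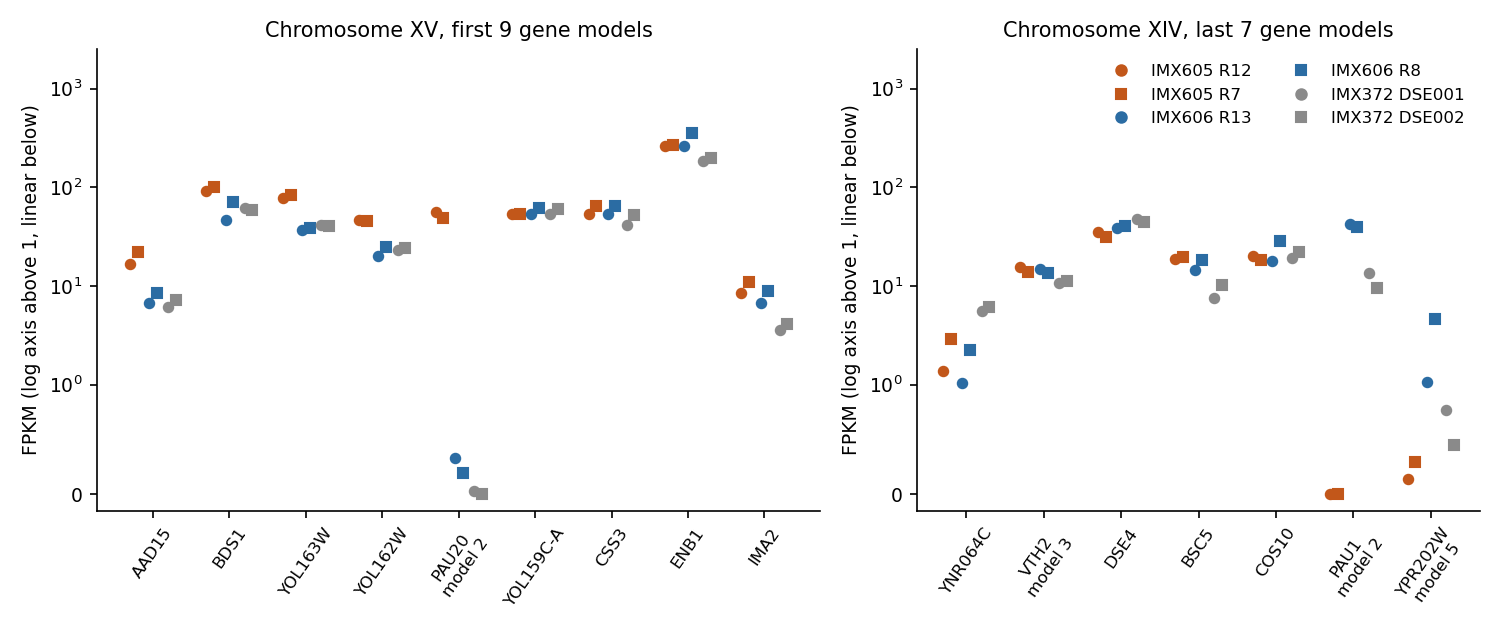
Levels in FPKM (log axis above 1, linear below) of the first 9 gene models of chromosome XV and the last 7 of chromosome XIV, in order along each chromosome, in the libraries of IMX605, IMX606 and IMX372. From AAD15 to PAU20 model 2 both IMX605 libraries lie above the other 4; PAU1 model 2 is at 0 in IMX605.

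Chromosome by chromosome, the medians lay between 0.01 and 0.04. Chromosome V had a median difference of 0.01 over 262 genes tested, with CAN1 as the 1 gene called, and chromosome IX a median of 0.01 over 191 genes, with FMC1 and FYV10 as the 2 called. On chromosome IX 0 genes were called as higher in IMX605. Over all genes tested 0.129% were called, and 0.0552% were called as higher in IMX605. In medians over 5 neighbouring genes along each chromosome, the highest value was at YOL163W on chromosome XV (1.06) and the lowest at FMC1, FYV10 and BMT5 on chromosome IX (-0.24). Neighbouring genes are not independent, and these medians carry no test.

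FLP1, REP1 and REP2 of the 2-micron plasmid, a circular nuclear plasmid found in most laboratory strains, were lower in IMX605 without passing in the main fit. REP1, a partitioning gene, read 458 and 477 FPKM in IMX605, against 746 and 728 in IMX606 and 472 and 494 in IMX372 (-0.66, adjusted p = 0.0792 by limma). REP2, the other partitioning gene, read 499 and 541 FPKM against 901 and 784, with 441 and 443 in IMX372 (-0.69, adjusted p = 0.135). In both genes both IMX605 libraries read nearer to IMX372 than to IMX606. IMX372 comes from an earlier deposit and read far from both strains in FLP1, so which strain changed cannot be told. FLP1, the recombinase gene, which has an abundant opposite-strand neighbour, read 26.3 and 29.0 FPKM in IMX605 and 47.7 and 37.7 in IMX606 (-0.60, adjusted p = 0.868), while IMX372 stood at 393 and 442. These 3 genes were lower in both IMX605 libraries, as were 12.8% of all genes tested. The fit of all 6 libraries called REP1 and REP2 (adjusted p = 0.0139 and 0.0165). REP1 also passed with quantile normalization (adjusted p = 0.0493) and in voom (0.0354). A limma fit with a block of R7 and R8 against R12 and R13, resting on library numbers alone, called FLP1, REP1 and REP2. Their adjusted p values there were 0.0211, 0.000316 and 0.000398.

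Among 51 lists of genes, 1117 distinct genes were tested and 1 was called, beside 0.129% of all genes tested. That gene was CAN1, from the list of integration site genes. The same share applies to the counts of genes called in the lists below. Lists of 5 or more tested genes had median differences between -0.08 and 0.27, beside 0.02 for all genes tested. They are described by counts, without a test. The greatest median was that of the nuclear genes for mitochondrial ribosomal proteins, which build the ribosome that translates mitochondrial mRNA. All 65 had positive differences, where 3014 of all 5430 genes did, 47 were higher in both IMX605 libraries (15.7% of all genes were) and 0 lower, 25 had an unadjusted p under 0.05 (3.11% of all genes did), and 0 were called. MRPL19 read 158 and 180.3 FPKM in IMX605, against 134 and 117 in IMX606 and 100.1 and 92.9 in IMX372 (0.43, unadjusted p = 0.00732, adjusted p = 0.998). MRP4 read 159 and 185 FPKM against 138 and 121 (0.40), MRP2 221 and 264 against 192 and 186 (0.35), and MRPL23 325 and 377 against 257 and 283 (0.38). MRPL4 showed the largest difference, with 116 and 122 FPKM against 103 and 59.6 (0.59), and was called without IMX606 R13 (0.98, adjusted p = 0.0190), while without IMX606 R8 its difference was 0.20 (adjusted p = 0.997).

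Much of that list's shift was seen in 1 library. As medians over the 65 genes of each library's distance from the gene's mean over the 4 libraries, IMX605 R12 and R7 stood at -0.02 and 0.28, and IMX606 R13 and R8 at -0.16 and -0.09. The part of this culture in the result was not tested further than by leaving it out. The list's median difference of 0.27 became 0.12, with 60 positive, without IMX605 R7, and 0.41 without IMX605 R12. Other mitochondrial genes leaned the same way by less. Of 41 respiratory chain and ATP synthase genes, 39 were positive and 13 higher in both IMX605 libraries (15.7% of all genes were). Their median of 0.09 was 0.01 without IMX605 R7 and 0.04 without IMX606 R13. It was 0.17 without IMX605 R12 and 0.15 without IMX606 R8. CYC7, the minor cytochrome c, read 30.1 and 41.3 FPKM in IMX605 against 26.5 and 23.0 in IMX606 (0.50), and CYC1, the major one, 2666 and 3325 against 2288 and 2489 (0.32). COX23 and COA6, both needed for assembly of cytochrome oxidase, differed by 0.49 and 0.46 with unadjusted p of 0.00488 and 0.00581 (adjusted p = 0.998 each by limma). The 26 genes of the citric acid cycle had a median of 0.06 with 20 positive. Over the alternative settings that median ran from -0.03 to 0.18, so its direction turned in part of them. Relative to the genes' means, IMX605 R7 stood at 0.14 and R12 at -0.06, and IMX606 R8 at 0.05 and R13 at -0.10. R7 and R8 were thus the higher libraries of their strains, and leaving out 1 library unbalances them.

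Stress and storage genes showed a like lean. Of 34 genes of the general stress response, 31 were positive, 8 were higher in both IMX605 libraries (15.7% of all genes were), 5 had an unadjusted p under 0.05 (3.11% did) and 0 were called, with a median of 0.15. HSP12, a membrane-protecting small heat shock protein, read 601 and 886 FPKM in IMX605, against 471 and 547 in IMX606 and 63.5 and 52.7 in IMX372 (0.52). HSP26, a small chaperone, read 115 and 168 FPKM against 103 and 79.1 (0.62), and RTC3 139 and 168 against 97.1 and 123 (0.48). Here too IMX605 R7 was the highest library for each of the 3, and the list's median was 0.02 without it and 0.30 without IMX605 R12. Over the list R7 and R8 were the higher libraries of their strains, with median gaps of -0.28 (R12 minus R7) and -0.23 (R13 minus R8). Leaving out 1 library thus also unbalances R7 and R8 against R12 and R13. A limma fit with these library numbers as a block called 3 of the 34 genes as higher in IMX605. The 21 genes of trehalose and glycogen metabolism had a median of 0.13 with 18 positive. That median was 0.01 without IMX605 R7, 0.25 without IMX605 R12, 0.09 without IMX606 R13 and 0.21 without IMX606 R8. GLC3, the glycogen branching enzyme, had the largest difference of the 21, with 13.1 and 18.8 FPKM against 11.4 and 11.7 (0.41).

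Genes of cytosolic protein synthesis leaned slightly to lower values in IMX605. Of 114 ribosome biogenesis genes, 38 were lower (12.8% of all genes were) and 2 higher (15.7% were) in both IMX605 libraries, 34 were positive and 0 were called, with a median of -0.05; DBP7, an RNA helicase of the large subunit, read 27.6 and 25.6 FPKM against 31.1 and 33.3 (-0.27). Of 86 cytosolic ribosomal protein genes that do not share a name, 21 were lower and 1 higher, beside the same 12.8% and 15.7%, with a median of -0.05. Without IMX606 R13 the biogenesis median was 0.01, and without IMX605 R7 the ribosomal protein median was 0.02, so both directions flipped in those fits. Leaving out 1 library also unbalances R7 and R8 against R12 and R13, which differed alike in both strains. The median gaps, R12 minus R7 and R13 minus R8, were 0.10 and 0.12 for biogenesis. They were 0.13 and 0.08 for ribosomal proteins. The 18 aminoacyl-tRNA synthetase genes had 12 lower and 0 higher in both IMX605 libraries and a median of -0.08, and the 27 genes of sulfur assimilation 9 lower and 0 higher with a median of -0.08, where 12.8% of all genes were lower and 15.7% higher; these medians stayed negative with any 1 library left out. VAS1, the valyl-tRNA synthetase, read 186 and 175 FPKM in IMX605 against 199 and 209 in IMX606 (-0.18), and MET5, a sulfite reductase subunit, 273 and 257 against 286 and 318 (-0.19).

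**Figure D5:**
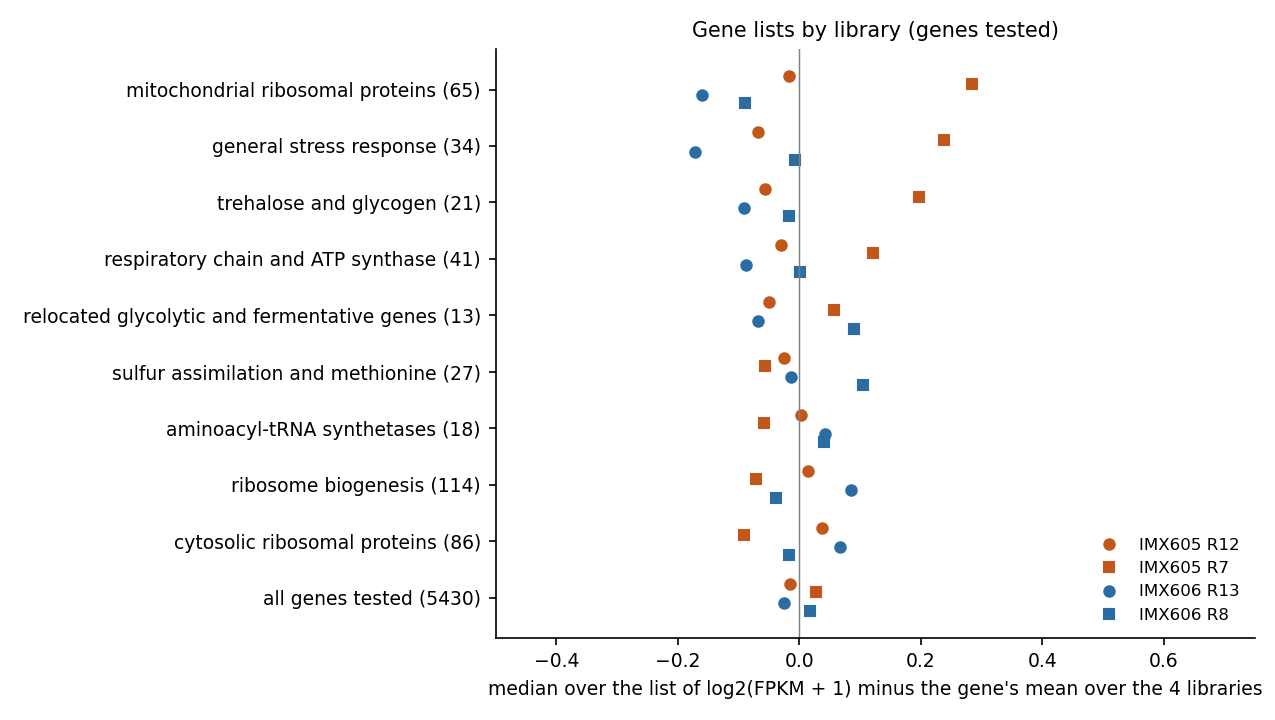
Medians, over the tested genes of each list, of log2(FPKM + 1) minus the gene's mean over the 4 libraries, for each library of IMX605 and IMX606. The mitochondrial ribosomal protein list stands at 0.28 in IMX605 R7 and at -0.16 in IMX606 R13, while all genes tested stay near 0.

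Among single genes of the remaining lists, a cell wall gene came nearest to the threshold. TIP1, a cell wall mannoprotein, read 47.4 and 47.7 FPKM in IMX605, against 27.8 and 31.7 in IMX606 and 31.6 and 24.8 in IMX372 (0.66, unadjusted p = 0.000332, adjusted p = 0.150 by limma). SED1, another wall protein, read 1033 and 1052 FPKM against 847 and 815 (0.33, unadjusted p = 0.00708). FLO11, the flocculin of invasive growth, read 6.51 and 9.98 FPKM against 13.4 and 10.5 (-0.50, unadjusted p = 0.0470). Of the 35 wall genes 8 were higher and 6 lower in both IMX605 libraries, near the shares of 15.7% and 12.8% over all genes, and the list's median was 0.05. YER084W, an open reading frame of unknown function on chromosome V, read 14.4 and 14.4 FPKM against 9.02 and 9.49 (0.59, adjusted p = 0.687). Lists of proteasome, ergosterol, zinc, iron, phosphate, purine, pyrimidine, pentose phosphate, histone and cell cycle genes had medians between -0.04 and 0.05. In each of them 0 genes were called, beside 0.129% of all genes tested.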

How the data were processed

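The authors deposited 1 table of FPKM values for 5625 gene models and 6 libraries. DESeq2, edgeR, featureCounts, SAMtools and STAR 2.5.4a appear in the submitters' processing notes, with no role stated; libraries were stranded, per the labels' protocols, while for the strand setting of counting and the build's name the sources used here give nothing. At least 99.7% of values were whole reads (tolerance 0.01), and reads were recovered from them; 0 columns of other samples were present. Genes averaging 1 FPKM or more, as log2(FPKM + 1), were fitted with limma 3.58.1 (R 4.3.3) on the 4 libraries with an intensity trend (residual degrees of freedom 2, prior 5.34, median residual SD 0.10). The fit was also run on simulated counts with 1 fixed dispersion and no effect shared between libraries. That run cannot vouch for the calls here, because the gaps between cultures of the 2 strains correlated at 0.38 across genes. A Benjamini-Hochberg adjusted p under 0.05 made a call. The edgeR test planned for counts was not run, since the table holds FPKM, and raw reads were not used.

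Names (5550 of 5625) were matched to RefSeq locus tags. Near-identical copies share at least 95% identity over 200 bases (BLAST 2.17.0); 287 models sharing a name are in no list; all seripauperin models were also summed. The compared members, lists and naming rule were chosen with earlier results of these data known. The rule named called genes, relocated genes, minor isoenzymes, site, marker and neighbouring genes, the smallest p of a list and the largest gaps between cultures; other genes were named after their values were seen. Alternatives were pseudocounts of 0.1 and 5, no limit, a limit of 5 FPKM, quantile normalization, median-of-ratios factors (0.981 to 1.02), all 6 libraries, no trend, voom on recovered reads, a library-number block and each library left out; a fit without genes that have copies, overlaps or opposite-strand neighbours (within 500 bases at 10 times the level) was chosen after seeing the data. Other software was matplotlib 3.10.9, scipy 1.17.1, pandas 2.3.3, numpy 2.4.6 and Python 3.11.15. Results for some genes are not reported here.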

Additional observations from a re-analysis of the deposited data

How the results depend on the processing

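The 7 calls were 7 under both pseudocounts, a mean of at least 5 FPKM and median-of-ratios factors, and the same 7 genes. They were 11 in the fit of all 6 libraries and 24 with the library-number block (R7 and R8 against R12 and R13), each with all 7 of them, 3 with no limit on low values, and 4 without genes that have copies, overlaps or opposite-strand neighbours. With 1 library left out they ranged from 4 to 9. CAN1 was called in every fit, and PAU1 model 2 and PAU20 model 2 in every fit that kept genes with copies; their fitted values in voom (-9.19 and 7.43) differ because the pseudocount sets the fold of genes near 0. Calls among the lists, 1 in the main fit, were 4 in the fit of all 6 libraries, 9 with the library-number block, 2 with quantile normalization and 3 with voom, and ranged from 1 to 2 with 1 library left out. Relocated genes called were 0 in each fit. With 1 library left out, the chromosome IX median ranged from -0.0168 (without IMX605 R7) to 0.0390 (without IMX605 R12), and the chromosome V median from 0.00 to 0.04. The difference of the relocated sum ranged from -20.9 to 6429 FPKM with 1 library left out, turning negative without IMX605 R7 (-20.9).

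YOL162W lost its call in 7 fits: no limit (adjusted p = 0.742), no trend (0.145), quantile normalization (0.0513), voom (0.0926), leaving out IMX605 R12 (0.318) or IMX605 R7 (0.390), and dropping genes that have copies (0.0584), by limma. YOL163W lost it with no limit (adjusted p = 0.167 by limma), and also without IMX605 R12 (difference 1.11) and without IMX605 R7 (1.01). The cause was not tested. No paired analysis was possible because the columns carry no replicate numbers of the labels; the block above rests on the order of the library numbers alone, and deviations within its pairs correlated at 0.38 across genes. Named genes that the block added were AAD15, BDS1, COX23, FLP1, HSP12, REP1, REP2, RTC3, TIP1 and YER084W. With 2 libraries a strain, the median half-width of the unadjusted 95% interval was 0.26 on the log2 scale. The smallest difference called was 1.01 in size, while AAD15 at 1.24 was not called, so the size needed for a call varied with the gene's scatter and was well above that half-width.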

Other observations

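The 2 cultures of a strain also differed from each other, and by more in IMX606. The SD over genes of the gap between cultures on the log2(FPKM + 1) scale was 0.18 in IMX605 and 0.25 in IMX606, with 74 and 192 genes beyond 1.5-fold. Among the 5 largest gaps of IMX606 were those of PHO84, PHO89 and SPL2. PHO84, the high-affinity phosphate transporter, read 7.24 (R12) and 20.4 (R7) FPKM in IMX605 and 5.92 (R13) and 30.0 (R8) in IMX606. PHO89, a sodium-coupled phosphate transporter, read 13.1 and 18.7 FPKM in IMX605 and 6.89 and 29.5 in IMX606, and SPL2, a phosphate-responsive regulator of uptake, 4.90 and 10.7 against 3.25 and 14.9. In each of the 3 genes R7 and R8 were the higher libraries of their strains, and the strains' means differed by -0.14, 0.10 and 0.02 on the log2 scale. Over the 14 tested genes of the phosphate list the gaps were smaller, with medians relative to the genes' means of -0.10 and 0.05 in IMX605 and -0.06 and 0.10 in IMX606.

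The other largest gaps in IMX605 were in TDH2 (1.64 and 7.96 FPKM), YFL012W (0.556 and 3.79), GAT4 (2.72 and 0.701) and DPA10 (8.28 and 19.0). In IMX606 they were CWH36 (6.001 and 0.810 FPKM), which overlaps another model, and LAS17 (30.0 and 9.30), an actin assembly gene with an abundant opposite-strand neighbour.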
